A study of Mus musculus with 8 samples.

Results

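RNA of sorted spleen cells bearing both B220 and CD3 was sequenced from 2 kinds of mice, Eaf2-/-Faslpr and Faslpr, as 4 libraries in each group (titled EAF2Faslpr and Faslpr). Both groups carry the lpr mutation of Fas, a death receptor gene, and such mice accumulate T cells that display the B220 form of CD45. Eaf2, deleted in the first group, encodes a partner of the ELL transcription elongation factors. Age, sex, strain background, the deleted part of Eaf2 and the pooling of animals are not stated by the labels. The members described are 10 genes chosen by symbol, all present among the 17384 genes of the table and all among the 12340 genes tested. They are the Rel family subunits Rel, Rela, Relb, Nfkb1 and Nfkb2, the kinase gene Map3k14 (NIK), and the adaptors Traf1, Traf2, Traf3 and Traf5. By the RefSeq gene table of GRCm38.p6, Rel and Map3k14 lie on chromosome 11, Rela and Nfkb2 on 19, Traf1 and Traf2 on 2, Relb on 7, Nfkb1 on 3, Traf3 on 12 and Traf5 on 1, and Eaf2 on 16.

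NF-kB is a family of paired transcription factors. In the canonical route, antigen receptor or TNF signals release RelA, c-Rel and the Nfkb1 product from IkB inhibitors within minutes. In the noncanonical route, TRAF2 and TRAF3 keep NIK low by handing it to ubiquitin ligases. When receptors such as CD40 or the BAFF receptor draw these adaptors away, NIK accumulates and the Nfkb2 precursor is cut to a form that pairs with RelB. Lymphocytes use the first route for activation and survival and the second mainly for B cell survival and lymphoid organ formation. Much of this control acts on protein, which RNA counts do not measure.

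Of the 10 members, Rel, Map3k14 and Nfkb2 rose in Eaf2-/-Faslpr cells and none fell. Rel, which encodes the lymphoid subunit c-Rel, was 1.57-fold higher, Map3k14 1.36-fold and Nfkb2 1.29-fold. The partners most closely tied to them, Rela, Relb, Nfkb1, Traf2 and Traf3, did not pass, nor did Traf1 and Traf5. Over all genes tested 7.14% were called higher and 4.96% lower, so the 3 of 10 called higher stand beside that background. The members were chosen with earlier results of these data known, so this is a description and not a test. No member was lower by edgeR, 0 also at an unadjusted p under 0.05, and 0 by DESeq2 and by limma-voom. The median log2 fold change was 0.06 over the members and −0.01 over all genes tested, and the median size of the change, whatever its sign, was 0.11 and 0.14.

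The libraries held between 15.6 and 18.6 megareads, and a member had between 411 and 8330 estimated reads in a library. Whether each replicate is an animal of its own is not stated, so a p-value reflects the spread among these samples, which may be technical. Eaf2 had 4.43, 4.204, 4.02 and 6.29 CPM (counts per megaread of tested genes) in the Eaf2-/-Faslpr libraries, against 25.7, 24.2, 20.7 and 31.5 CPM in the Faslpr libraries. Cd3e, of the CD3 complex, averaged 557 ± 39.3 CPM in Eaf2-/-Faslpr and 602 ± 52.9 CPM in Faslpr cells. Of 11 T cell identity genes, 11 were tested and 1, Cd2, rose. Without Faslpr replicate 4 the count was 3, with Thy1 and Cd3g, and without Faslpr replicate 3 it was 2, with Cd5, and Zap70 was called lower; DESeq2 gave 2 higher and 1 lower. Their summed level was 6404 to 6533 CPM in Eaf2-/-Faslpr against 5941 to 6202 CPM in Faslpr libraries, with means of 6465 and 6087 CPM. Much of that difference lay in Ptprc, the CD45 gene, which averaged 2312 CPM in Eaf2-/-Faslpr and 1989 CPM in Faslpr cells, without a call. Which of the sorted cells carry Ptprc was not tested. All 12 B cell markers rose, and they were not at 0 in Faslpr cells: their sum was 333 to 652 CPM in Eaf2-/-Faslpr and 66.6 to 138 CPM in Faslpr libraries. The highest of these sums was in Eaf2-/-Faslpr replicate 3. Of 9 genes of MHC class II presentation 7 rose, and they summed to 608 to 1069 CPM in Eaf2-/-Faslpr against 267 to 437 CPM in Faslpr libraries. Fas did not pass (log2 fold change 0.24), except without Faslpr replicate 4 (0.37, edgeR adjusted p = 0.0415), at 64.2 ± 6.87 CPM in Eaf2-/-Faslpr and 54.3 ± 9.82 CPM in Faslpr cells (± SD, 4 libraries each). In bulk RNA, fewer cells of a type and less RNA per cell cannot be told apart.

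Rel and Nfkb2 are known targets of the family itself, so promoter windows are shown for the members that rose. Each runs from 250 bases before to 50 after a gene start. The most downstream Nfkb2 window is not shown, so the downstream start below is the later of the Nfkb2 windows shown. They come from RefSeq on GRCm38.p6, 5′ to 3′ on the gene's strand, and capitals mark matches to the kappaB consensus on either strand. The consensus searched has 3 G, a purine, any base, A or T, 2 pyrimidines and 2 C, and overlapping matches run together.
Rel, chr11:23770920-23771219, minus strand: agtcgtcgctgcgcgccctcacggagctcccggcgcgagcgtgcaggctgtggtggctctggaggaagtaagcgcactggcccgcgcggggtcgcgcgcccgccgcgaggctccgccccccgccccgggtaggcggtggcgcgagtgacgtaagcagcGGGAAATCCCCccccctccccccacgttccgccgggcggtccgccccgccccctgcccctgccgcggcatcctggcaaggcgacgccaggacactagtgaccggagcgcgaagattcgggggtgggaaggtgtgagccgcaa
Nfkb2, upstream start, chr19:46304487-46304786, plus strand: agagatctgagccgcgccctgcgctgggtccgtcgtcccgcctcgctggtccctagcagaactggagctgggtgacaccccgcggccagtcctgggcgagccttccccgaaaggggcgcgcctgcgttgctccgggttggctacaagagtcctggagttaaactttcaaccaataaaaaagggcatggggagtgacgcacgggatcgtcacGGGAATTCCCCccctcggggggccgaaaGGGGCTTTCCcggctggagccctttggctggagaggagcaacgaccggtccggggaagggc
Nfkb2, downstream start, chr19:46305445-46305744, plus strand: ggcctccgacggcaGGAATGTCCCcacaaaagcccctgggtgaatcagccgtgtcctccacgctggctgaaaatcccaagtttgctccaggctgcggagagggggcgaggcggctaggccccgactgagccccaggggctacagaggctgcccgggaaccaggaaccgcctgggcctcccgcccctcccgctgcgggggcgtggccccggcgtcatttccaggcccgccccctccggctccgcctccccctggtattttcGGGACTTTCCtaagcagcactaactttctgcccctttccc
Map3k14, chr11:103267352-103267651, minus strand: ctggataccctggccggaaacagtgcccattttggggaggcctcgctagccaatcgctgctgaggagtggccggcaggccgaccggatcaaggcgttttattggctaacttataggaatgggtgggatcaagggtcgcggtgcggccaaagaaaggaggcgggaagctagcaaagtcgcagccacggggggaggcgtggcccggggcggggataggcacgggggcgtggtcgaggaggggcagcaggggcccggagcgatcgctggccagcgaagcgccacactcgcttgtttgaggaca

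Positions of a match are those of its leftmost base relative to the start. The Rel window held overlapping matches at −92 and −91, around GGGAAATCCC. The upstream Nfkb2 window held GGGAATTCCC, at −39, overlapped by a further match at −38, and GGGGCTTTCC at −11. The downstream Nfkb2 window held GGGACTTTCC at 10 and, on the other strand, GGGACATTCC at −236. The Nfkb2 window not shown, chr19:46305680-46305979, overlaps it and held GGGACTTTCC at −225 from its own start. The Map3k14 window held no such letters. Windows were found for 8 members, and besides Rel and Nfkb2 the one of Traf3 held a match, GGGGATTTCC, at −10; those of Rela, Traf1, Traf2 and Traf5 held none. A match was present in 4.51% of all 32851 windows and in 5.06% of the 12560 windows of tested genes. A match is a string of letters, and no binding was measured here.

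Among the subunits with a transactivation domain, Rel moved apart from Rela and Relb. Rel, needed for T cell proliferation and cytokine genes, stood at 137, 122, 122 and 125 CPM in the Eaf2-/-Faslpr libraries, against 83.7, 78.0, 100.6 and 59.8 CPM in the Faslpr libraries. Every Eaf2-/-Faslpr library was above every Faslpr library, and the Faslpr libraries were the more scattered, with replicate 4 lowest and replicate 3 highest. The mean was 127 ± 7.24 CPM in Eaf2-/-Faslpr and 80.5 ± 16.8 CPM in Faslpr cells (± SD, 4 libraries each). The log2 fold change was 0.65 (SE 0.13) with an adjusted p of 0.0102 (edgeR quasi-likelihood test, Benjamini-Hochberg). Rel passed in all 17 other settings run, among them 8 that each omit a library. Over these 8 its log2 fold change ranged from 0.54, without Faslpr replicate 4, to 0.78, without Faslpr replicate 3.

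Rela encodes the main activating subunit of the canonical route. Its level was 161, 171, 172 and 175 CPM in Eaf2-/-Faslpr libraries, against 181, 191, 173 and 184 CPM in Faslpr libraries. The groups overlapped, through Faslpr replicate 3. The log2 fold change was −0.10 with a 95% interval of −0.24 to 0.04 (adjusted p = 0.362, edgeR). Relb, the partner of the processed Nfkb2 product, had 46.5, 43.2, 47.3 and 45.6 CPM in Eaf2-/-Faslpr libraries, against 37.1, 50.5, 40.9 and 47.6 CPM in Faslpr libraries. All Eaf2-/-Faslpr values lay within the Faslpr range, and the 95% interval of the log2 fold change was −0.17 to 0.27.

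**Figure D1:**
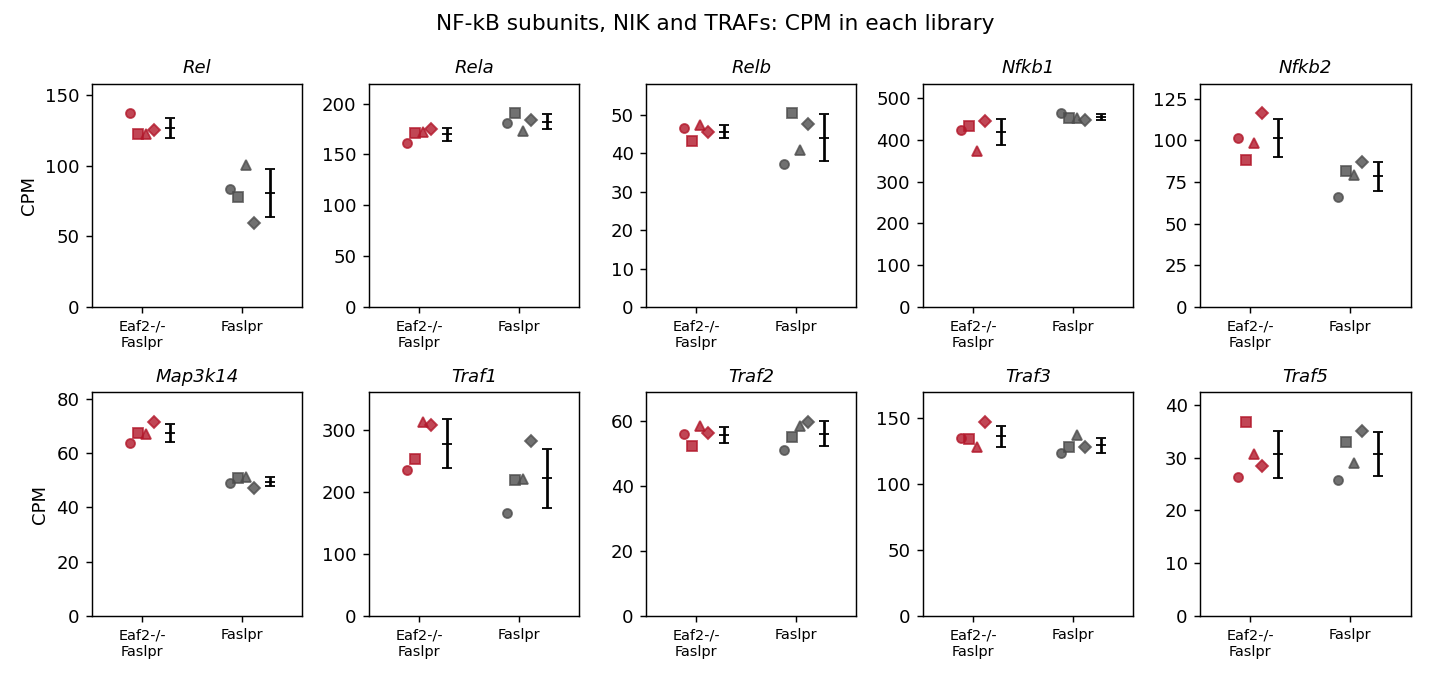
CPM of the 10 members in each library, with Eaf2-/-Faslpr (red) left of Faslpr (grey); marker shape gives the replicate number and the bar beside the points the mean and SD (n = 4). Rel, Nfkb2 and Map3k14 show no overlap between groups and are higher in Eaf2-/-Faslpr; Nfkb1 shows none either and is lower in mean, at 418 against 455 CPM, without a call.

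Of the precursor genes Nfkb2 passed and Nfkb1 did not. Nfkb2, whose long product acts as an IkB-like inhibitor until it is processed, had 102, 88.5, 98.7 and 117 CPM in Eaf2-/-Faslpr libraries, against 66.3, 81.4, 79.2 and 86.9 CPM in Faslpr libraries. The groups did not overlap, with Eaf2-/-Faslpr replicate 2 only just above Faslpr replicate 4. The mean was 101 ± 11.6 CPM in Eaf2-/-Faslpr and 78.5 ± 8.74 CPM in Faslpr cells (± SD, 4 libraries each). This is 0.37 on the log2 scale (SE 0.10, adjusted p = 0.0446, edgeR). The call is near the threshold: it was lost in 6 of the 8 fits that left out 1 library, without Eaf2-/-Faslpr replicate 1, 3 or 4 (edgeR adjusted p = 0.0829, 0.0835 and 0.124) or Faslpr replicate 1, 2 or 3 (0.101, 0.0921 and 0.0766). The log2 fold change over the 8 fits ranged from 0.30 to 0.43. In GENCODE M21, 11.6% of the exon bases of Nfkb2 overlap AC114539.1, which is not among the genes of the table, and 6.52% overlap Psd, both on the other strand, and no source names a strand setting for the counting, so reads of Nfkb2 and of these genes there cannot be told apart. Psd, named for this overlap, stood at 7.58 ± 0.947 CPM in Eaf2-/-Faslpr and 3.88 ± 0.653 CPM in Faslpr cells (± SD, 4 libraries each). Psd was itself called higher (log2 fold change 0.96, edgeR adjusted p = 0.00523). The part of these overlapping genes in the Nfkb2 call was not tested.

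Nfkb1, the source of the p50 subunit, had 423, 433, 373 and 444 CPM in Eaf2-/-Faslpr libraries, against 465, 453, 452 and 448 CPM in Faslpr libraries. Every Eaf2-/-Faslpr library was below every Faslpr library, with replicate 3 the farthest. Its log2 fold change of −0.12 had a 95% interval of −0.27 to 0.03 and did not pass (adjusted p = 0.330, edgeR). CPM of the groups did not overlap for 4 of the 10 members, Rel, Nfkb2 and Map3k14 upward and Nfkb1 downward, against 17.7% of all genes tested (9.71% upward and 7.96% downward).

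**Figure D2:**
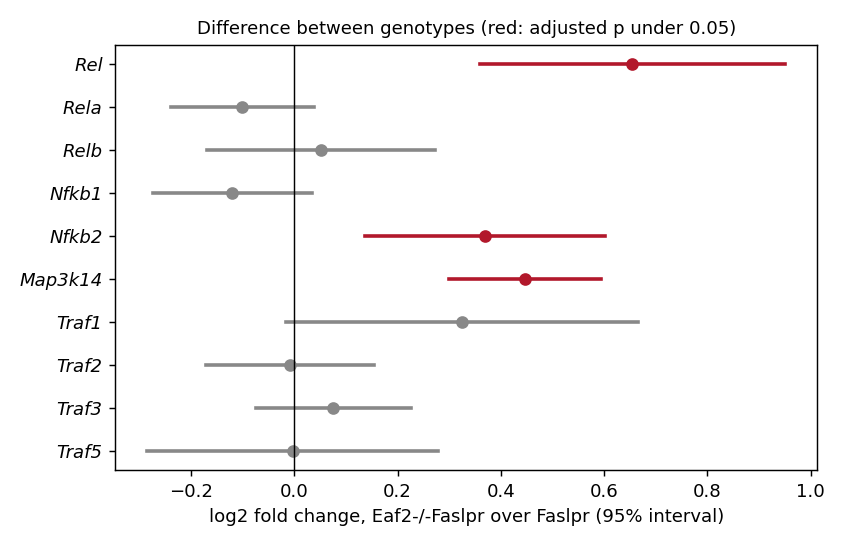
Log2 fold change of each member, Eaf2-/-Faslpr over Faslpr, with its 95% interval from the edgeR fit; red marks an adjusted p under 0.05. Rel (0.65), Map3k14 (0.45) and Nfkb2 (0.37) have intervals above 0; the interval of Traf1 (0.33) reaches from −0.02 to 0.67, and the other 6 members lie between −0.12 and 0.08.

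Map3k14 encodes NIK, the kinase at the head of the noncanonical route. It had 63.8, 67.5, 67.2 and 71.8 CPM in Eaf2-/-Faslpr libraries, against 48.9, 50.8, 51.3 and 47.3 CPM in Faslpr libraries. The gap between groups was wider than the spread within either. The mean was 67.6 ± 3.26 CPM in Eaf2-/-Faslpr and 49.6 ± 1.82 CPM in Faslpr cells (± SD, 4 libraries each), with a log2 fold change of 0.45 (SE 0.07, adjusted p = 0.00198, edgeR). It passed in 17 of 17 other settings, and its log2 fold change ranged from 0.42 to 0.47 when 1 library was left out. In GENCODE M21, 2.06% of the exon bases of Map3k14 overlap 1700028N14Rik on the same strand, which is not among the genes of the table.

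The adaptors that hold NIK down did not pass. Traf2, which brings the cIAP ubiquitin ligases, had 56.1, 52.5, 58.4 and 56.3 CPM in Eaf2-/-Faslpr libraries, against 51.1, 55.0, 58.6 and 59.9 CPM in Faslpr libraries. Traf3, which binds NIK directly, had 135, 134, 128 and 147 CPM in Eaf2-/-Faslpr libraries, against 124, 128, 137 and 128 CPM in Faslpr libraries. Both overlapped between groups, with 95% intervals of the fold from 0.89 to 1.11 for Traf2 and from 0.95 to 1.17 for Traf3.

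Traf1, an adaptor that pairs with TRAF2 and is itself induced by NF-kB, had 235, 252, 313 and 308 CPM in Eaf2-/-Faslpr libraries, against 165, 219, 220 and 282 CPM in Faslpr libraries. The groups overlapped through Faslpr replicate 4. The mean was 277 ± 39.2 CPM in Eaf2-/-Faslpr and 221 ± 47.7 CPM in Faslpr cells (± SD, 4 libraries each). The log2 fold change of 0.33 had an adjusted p of 0.224 (edgeR), which ranged from 0.0535 to 0.418 over the other settings. Traf5, a relative of Traf2 that serves costimulatory receptors, had 26.4, 36.9, 30.7 and 28.5 CPM in Eaf2-/-Faslpr libraries, against 25.8, 33.0, 28.9 and 34.97 CPM in Faslpr libraries. The groups overlapped almost wholly, and the 95% interval of the fold was 0.82 to 1.21. In GENCODE M21, 4.49% of the exon bases of Traf5 overlap Gm26879 on the other strand and 1.42% overlap Mir3473c on the same strand. Neither is among the genes of the table.

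Levels between genes were set side by side per length, as the authors' FPKM. In Eaf2-/-Faslpr cells Traf1 stood first at 133 ± 19.1 FPKM, then Nfkb1 at 103 ± 6.94 and Rela at 65.4 ± 2.49 FPKM (SD, n = 4 each). In Faslpr cells Nfkb1 stood first at 111 ± 1.07, then Traf1 at 106 ± 22.8 and Rela at 69.6 ± 3.01 FPKM. The ranges of Traf1 and Nfkb1 were apart in Eaf2-/-Faslpr cells and overlapped in Faslpr cells. Nfkb2 came next in both, at 28.7 ± 3.71 FPKM in Eaf2-/-Faslpr and 20.6 ± 2.48 FPKM in Faslpr cells. The other 6 genes lay between 14.1 and 19.4 FPKM in Eaf2-/-Faslpr cells, in the order Relb, Traf3, Traf2, Rel, Map3k14 and Traf5, and between 10.8 and 18.5 FPKM in Faslpr cells, in the order Traf2, Relb, Traf3, Traf5, Map3k14 and Rel. Rel had the lowest mean of the 10 in Faslpr cells, where its range overlapped that of Map3k14. Relb, Traf3 and Traf2 did not differ beyond their spread in either group.

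The summed FPKM of the 5 Rel family genes was 234 ± 8.01 in Eaf2-/-Faslpr and 231 ± 5.70 in Faslpr cells (SD, n = 4 each), with overlapping groups. Within that sum Rel made up 7.99, 7.15, 7.37 and 6.87% in Eaf2-/-Faslpr libraries, against 4.95, 4.43, 5.94 and 3.46% in Faslpr libraries. Nfkb2 made up 12.3, 10.5, 12.7 and 13.6% in Eaf2-/-Faslpr libraries, against 7.70, 8.95, 8.998 and 9.99% in Faslpr libraries. Nfkb1 made up 44.8, 46.1, 41.1 and 44.4% in Eaf2-/-Faslpr libraries, against 50.2, 46.8, 48.7 and 47.2% in Faslpr libraries. The groups did not overlap for these 3 shares, and those of Rela and Relb did overlap. The ratio of Rel to Rela FPKM was 0.300, 0.251, 0.250 and 0.251 in Eaf2-/-Faslpr libraries, against 0.162, 0.143, 0.205 and 0.115 in Faslpr libraries. The ratio of Map3k14 to Traf3 FPKM was 0.806, 0.857, 0.893 and 0.831 in Eaf2-/-Faslpr libraries, against 0.675, 0.676, 0.638 and 0.627 in Faslpr libraries. These shares and ratios combine the members and carry no test. Shares of a sum depend on one another, so a larger share of some genes lowers those of the others. The Nfkb2 share is in FPKM, where its log2 fold change was larger than in counts.

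**Figure D3:**
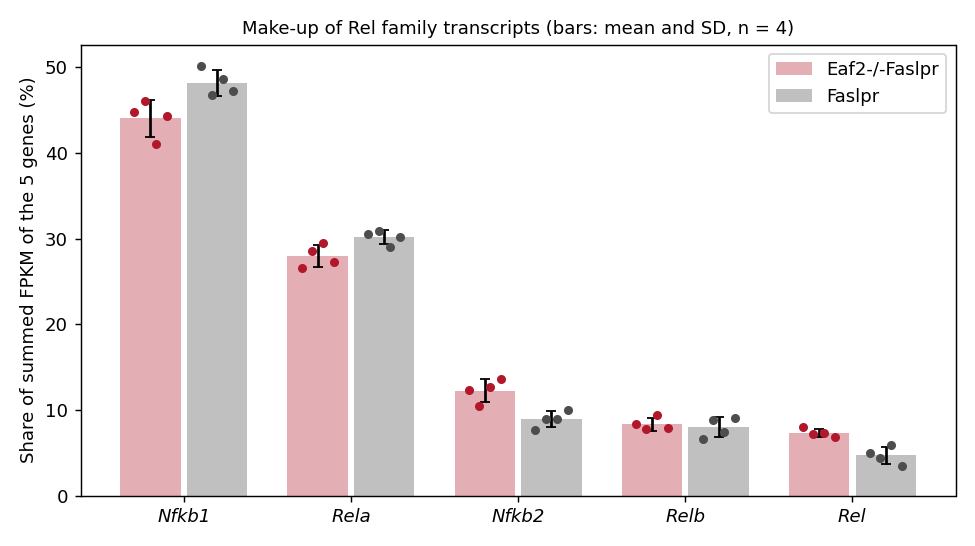
Share (%) of the summed FPKM of the 5 Rel family genes taken by each, per library, with bars for mean and SD (n = 4), Eaf2-/-Faslpr in red and Faslpr in grey. Nfkb1 takes 44.1% in Eaf2-/-Faslpr and 48.2% in Faslpr cells, and the shares of Nfkb2 (12.3% against 8.91%) and Rel (7.34% against 4.70%) are larger in Eaf2-/-Faslpr cells.

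Nfkb2 was also followed in a further readout, added after its values were seen. The estimated count divided by FPKM follows the mean length of the transcripts a gene's reads were assigned to, and it was set relative to the median gene of each library and to the gene's own mean. For Nfkb2 it was 0.968, 0.993, 0.950 and 0.948 in Eaf2-/-Faslpr libraries, against 1.03, 1.04, 1.05 and 1.03 in Faslpr libraries. The groups did not overlap, as for 4.26% of the 9239 genes with at least 2 FPKM in every library. The log2 difference was −0.10 (SE 0.02) and did not pass over these genes (limma adjusted p = 0.0595), of which 23, or 0.249%, did. It passed without Eaf2-/-Faslpr replicate 2 (limma adjusted p = 0.0320) and not in the other 7 fits that left out 1 library (up to 0.185). The same shift makes the Nfkb2 log2 fold change larger in FPKM, at 0.47 with a pseudocount of 0.5, than in counts. For the other 9 members the log2 difference was between −0.01 and 0.00.

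**Figure D4:**
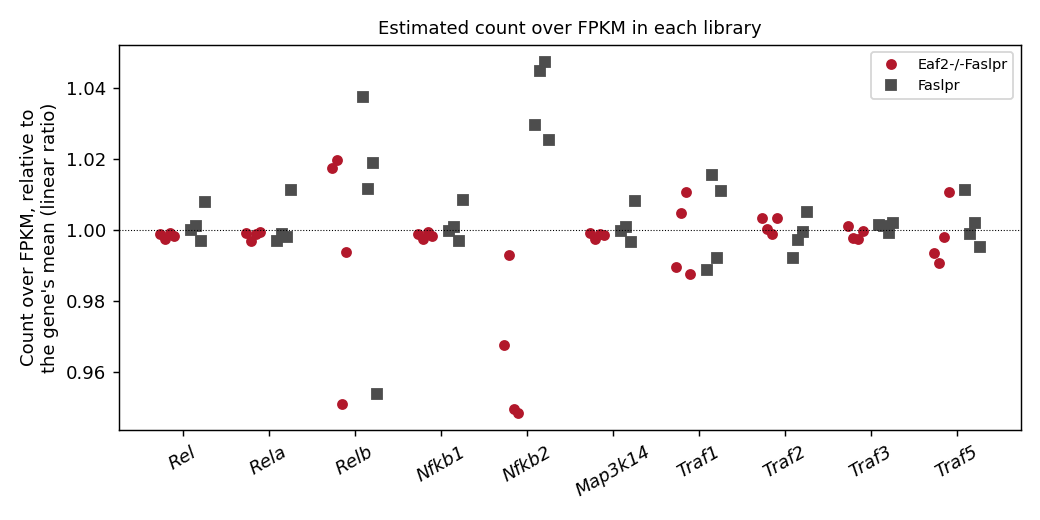
Estimated count over FPKM in each library, relative to the gene's mean over the 8 libraries (linear ratio), Eaf2-/-Faslpr in red and Faslpr in grey. Nfkb2 lies between 0.948 and 0.993 in Eaf2-/-Faslpr and between 1.03 and 1.05 in Faslpr libraries; most other members lie close to 1 and Relb is scattered in both groups.

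Likeness of pattern over the 8 libraries was measured as the root mean square difference of centred log2 CPM among 9675 genes averaging at least 5 CPM. Nearest to Rel were Rab8b, a vesicle transport GTPase gene (0.08), and Itgb1, the integrin beta chain gene (0.09). Nearest to Map3k14 were Cyth1, an ARF exchange factor gene (0.04), and Palld, of an actin-associated protein (0.06). Nearest to Nfkb2 were the forkhead gene Foxp4 (0.08) and the kinase gene Pim3 (0.09). All 6 passed and were higher in Eaf2-/-Faslpr cells, as the measure itself requires a like difference.

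Beyond the members, 68 of 78 other pathway genes in 7 lists by role were tested, and 24 of them rose and 1 fell. By DESeq2, and likewise in a replicate block fit, 3 fell, without Faslpr replicate 1 also 3, and without Eaf2-/-Faslpr replicate 1 or Faslpr replicate 3 the number was 2. The part of the B cell and MHC class II genes, higher in these same libraries, in each result was not tested. Without Faslpr replicate 2, 15 of these 68 were called higher, all 15 among the 24. The lists hold 24 of 68, or 35.3%, called higher, beside 7.14% of all genes. They were chosen with earlier results of these data known, so this contrast is a description and not a test.

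At the top of the route, 3 of 10 tested receptors that bind TRAFs rose. Cd40, the costimulatory receptor of B cells and antigen-presenting cells, stood at 5.38 ± 1.65 CPM in Eaf2-/-Faslpr and 1.01 ± 0.456 CPM in Faslpr cells. Tnfrsf13c, the BAFF receptor gene of B cells, stood at 15.1 ± 4.16 CPM in Eaf2-/-Faslpr and 5.66 ± 1.95 CPM in Faslpr cells. Tnfrsf4 (OX40), a costimulatory receptor of T cells, rose 1.64-fold, without a call in 6 of 8 fits that left out 1 library (edgeR adjusted p up to 0.0795), all but those without Eaf2-/-Faslpr replicate 2 or Faslpr replicate 4. Cd27, the highest in CPM receptor without a call, stood at 472 ± 34.3 CPM in Eaf2-/-Faslpr and 506 ± 83.8 CPM in Faslpr cells (± SD, 4 libraries each).

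Of 8 tested TNF family ligands 4 rose. They included Tnf, 4.56-fold higher (11.3 ± 3.50 CPM in Eaf2-/-Faslpr and 2.48 ± 0.566 CPM in Faslpr cells), Ltb, of a ligand for the noncanonical route, 2.396-fold (122 ± 42.4 CPM in Eaf2-/-Faslpr and 50.9 ± 17.6 CPM in Faslpr cells), and Tnfsf11 (RANK ligand), under 2 CPM on average in both groups. Ltb had an edgeR adjusted p of 0.0552 without Faslpr replicate 2. Lta, of lymphotoxin alpha, passed at an edgeR adjusted p of 0.0454 but lost its call in 7 of 8 fits that left out 1 library, all but that without Eaf2-/-Faslpr replicate 1 (up to 0.124), by limma-voom (0.0741) and on FPKM (0.0596 and 0.0592). Tnfsf8 did not pass in the fit of all libraries, but was called lower without Eaf2-/-Faslpr replicate 1 (log2 fold change −0.74, edgeR adjusted p = 0.0133) and with the replicate block (−0.53, 0.0193), at 31.8 ± 9.54 CPM in Eaf2-/-Faslpr and 45.3 ± 9.41 CPM in Faslpr cells.

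Among 12 tested TRAF relatives and partners 3 rose and 1 fell. Traf4, a family member with roles in epithelial and immune cells, stood at 37.5 ± 2.91 CPM in Eaf2-/-Faslpr and 22.9 ± 2.70 CPM in Faslpr cells, with a log2 fold change of 0.71 (edgeR adjusted p = 0.00172). Birc3 (cIAP2), which with TRAF2 and TRAF3 marks NIK for destruction, rose 1.33-fold (70.7 ± 3.46 CPM in Eaf2-/-Faslpr and 53.0 ± 4.19 CPM in Faslpr cells). Traf7, the most distant relative of the family, fell, at 101 ± 4.98 CPM in Eaf2-/-Faslpr and 128 ± 6.08 CPM in Faslpr cells (log2 fold change −0.34, edgeR adjusted p = 0.00815). Each of these 3 passed whichever library was left out. Tank, a TRAF-binding adaptor, also rose (edgeR adjusted p = 0.0293) but lost its call in 6 of 8 such fits, all but those without Faslpr replicate 1 or 4 (up to 0.0773). Traf3ip3, the highest in CPM without a call, stood at 314 ± 29.8 CPM in Eaf2-/-Faslpr and 319 ± 28.2 CPM in Faslpr cells.

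The IKK complex and its upstream kinases gave 1 call in 11. Ikbke, of an IKK-related kinase, rose 1.23-fold (248 ± 10.3 CPM in Eaf2-/-Faslpr and 202 ± 17.6 CPM in Faslpr cells), and lost its call in 5 of 8 fits that left out 1 library, without Eaf2-/-Faslpr replicate 2, 3 or 4 or Faslpr replicate 1 or 2 (edgeR adjusted p up to 0.101). Tab2, the highest in CPM without a call, stood at 286 ± 7.36 CPM in Eaf2-/-Faslpr and 281 ± 17.0 CPM in Faslpr cells. In the antigen receptor branch 1 of 5 rose, Prkcb, a protein kinase C gene that acts in B cell receptor signalling (1.43-fold), and without Faslpr replicate 3 Malt1 passed as well, making 2. Prkcq, its counterpart in T cells, did not pass, at 361 ± 14.1 CPM in Eaf2-/-Faslpr and 372 ± 25.9 CPM in Faslpr cells.

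Downstream, 6 of 9 IkB proteins and A20 genes and 6 of 13 other NF-kB target genes rose. Without Faslpr replicate 2 the counts were 4 and 4, with Bcl3, Nfkbie, Ccr7 and Irf1 not called. Over fits that left out 1 library, Nfkbie kept its call only without Faslpr replicate 4, where Bcl3 lost it. In these fits Irf1 kept its call only without Eaf2-/-Faslpr replicate 2 or Faslpr replicate 3. Ccr7 did so only without Eaf2-/-Faslpr replicate 4 or Faslpr replicate 3. The replicate block lost Nfkbie and Irf1, and DESeq2 and limma-voom added Cxcl10. The feedback inhibitors Tnfaip3 and Nfkbia rose 2.92-fold and 2.64-fold and Nfkbid 1.72-fold, whereas Tnip1 did not pass at 167 ± 11.6 CPM in Eaf2-/-Faslpr and 191 ± 30.9 CPM in Faslpr cells. Of the targets, the stress gene Gadd45b rose 1.76-fold, the RNase gene Zc3h12a 1.59-fold and the IL-2 receptor chain gene Il2ra 1.51-fold (50.4 ± 6.57 CPM in Eaf2-/-Faslpr and 33.3 ± 3.65 CPM in Faslpr cells), and Cflar did not pass at 145 ± 4.97 CPM in Eaf2-/-Faslpr and 129 ± 18.97 CPM in Faslpr cells. The median log2 fold change was 0.59 for the inhibitors, 0.58 for the targets, 0.90 for the ligands, 0.12 for the TRAF partners, 0.10 for the antigen receptor branch, 0.03 for the kinases and 0.01 for the receptors.

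**Figure D5:**
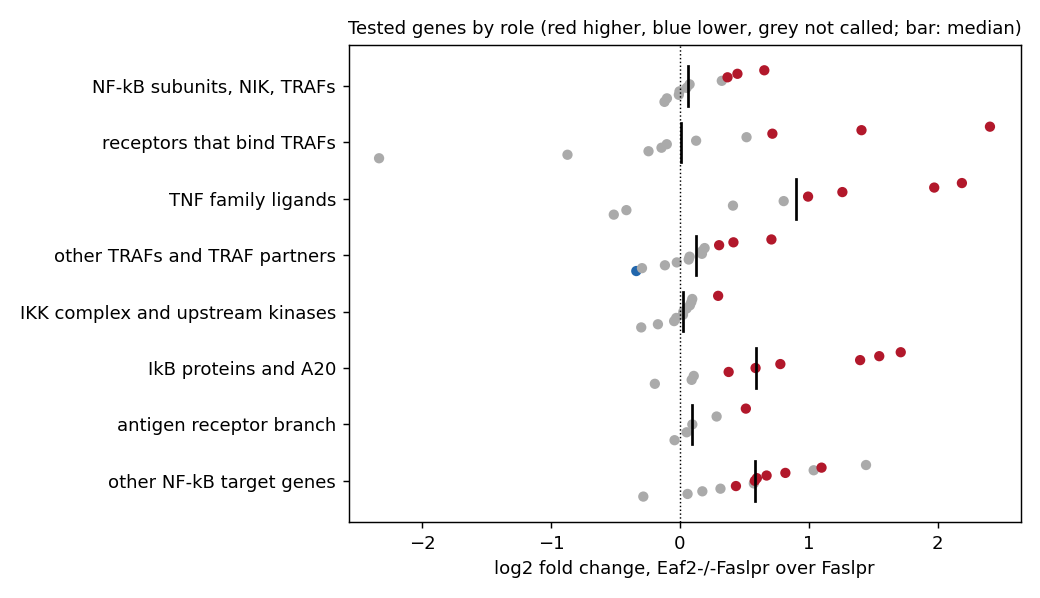
Log2 fold change (Eaf2-/-Faslpr over Faslpr) of the 10 members and of 68 other tested pathway genes by role; red points were called higher, blue lower and grey not called, and the bar is the median. The medians of the ligands (0.90), the IkB proteins and A20 (0.59) and the target genes (0.58) lie to the right of that of the members (0.06).

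Marker lists of cell types were set beside the members. Cd22 was the highest in CPM B cell marker, at 66.9 ± 15.9 CPM in Eaf2-/-Faslpr and 16.7 ± 5.25 CPM in Faslpr cells, and the B lineage factor gene Pax5 stood at 32.0 ± 10.9 CPM in Eaf2-/-Faslpr and 5.50 ± 2.03 CPM in Faslpr cells. Cd74, the MHC class II chaperone gene, stood at 301 ± 86.1 CPM in Eaf2-/-Faslpr and 103 ± 33.7 CPM in Faslpr cells. Pecam1 of the stroma and endothelium list also rose, whereas Ptprc, Sdc1, Cd68, Cxcr2, Tcf4, Eomes and Hbb-bs, the highest in CPM of the T cell, antibody-secreting, macrophage, neutrophil, dendritic, NK and erythroid lists, did not pass. Eomes averaged 1540 CPM in Eaf2-/-Faslpr and 1794 CPM in Faslpr cells. It made up nearly all of the mean NK list sums of 1542 and 1795 CPM. Which of the sorted cells carry Eomes or Sdc1 was not tested. Eaf2-/-Faslpr replicate 3, with a B cell sum of 652 CPM against 333 to 354 CPM in the other 3 libraries of its group, had 122 CPM of Rel, 67.2 CPM of Map3k14 and 98.7 CPM of Nfkb2. The ranges over its group were 122 to 137 CPM, 63.8 to 71.8 CPM and 88.5 to 117 CPM. Its Rel was at the lower end, level with that of Eaf2-/-Faslpr replicate 2, also at 122 CPM. In the Faslpr group replicate 3 had the highest B cell sum, 138 CPM against 66.6 to 102 CPM in the others, and also the highest Rel, 100.6 CPM, and Map3k14, 51.3 CPM, of its group. Its Nfkb2 was 79.2 CPM, within a group range of 66.3 to 86.9 CPM. Faslpr replicate 4 had the lowest Rel, 59.8 CPM, at a B cell sum of 89.3 CPM. Faslpr replicate 1 had 83.7 CPM of Rel at the lowest B cell sum, 66.6 CPM. Without Eaf2-/-Faslpr replicate 3 the log2 fold change was 0.67 for Rel, 0.45 for Map3k14 and 0.38 for Nfkb2, the last without a call, and all 12 B cell markers were still called higher, with a median log2 fold change of 1.86 against 2.13 with all libraries. The part of the B cell transcripts in the members' differences was not tested. Neutrophil genes summed to 78.5 CPM in Eaf2-/-Faslpr replicate 3 and to 12.6 to 17.3 CPM in the other 7, and 2 neutrophil genes, Ly6g and Retnlg, were too low to be tested; of the 4 tested none passed by edgeR, DESeq2 or limma-voom, and 3 had an unadjusted p under 0.05 by edgeR. Without Eaf2-/-Faslpr replicate 1 or 2, S100a8 and S100a9 were called higher, making 2. The macrophage list summed to 67.5 to 175 CPM in Eaf2-/-Faslpr and 52.8 to 69.1 CPM in Faslpr libraries, with 3 of 10 genes called higher by edgeR, 2 by DESeq2 and 1 by limma-voom, and 1 without Faslpr replicate 1, 2 or 4. Antibody-secreting cell genes summed to 621 to 758 CPM in Eaf2-/-Faslpr and 794 to 906 CPM in Faslpr libraries. Of these sums Sdc1 averaged 365 CPM in Eaf2-/-Faslpr and 439 CPM in Faslpr cells. Whether antibody-secreting cells or the sorted T cells carry these transcripts was not tested. Xbp1, 1 of 5 tested, fell. The count was 2 without Eaf2-/-Faslpr replicate 1, and with Sdc1 also 2 without Faslpr replicate 3 and by DESeq2. The share of B or myeloid cells among those sorted was not measured.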

How the data were processed

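Messenger RNA libraries (DNBSEQ, from TRIzol-extracted RNA per the labels' protocols) were grouped by their titles. The deposited table gives the authors' estimated counts (not whole numbers, unscaled) and the authors' FPKM values for each library, over 17384 genes. The submitters' processing notes name HISAT2 2.2.1, Bowtie2 2.4.5, RSEM 1.3.1 and GRCm39, with no roles. Nothing names an annotation, filter or strand setting. Estimated counts split reads shared by several genes, so those of similar genes are less certain. A further 16 per-sample columns (TPM and normalised counts) were not used.

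Estimated counts were rounded to whole numbers, filtered with filterByExpr (12340 genes), scaled with TMM and tested with edgeR 4.0.16 (quasi-likelihood, R 4.3.3) over all 8 libraries without a covariate, with Benjamini-Hochberg adjustment over all genes tested and a threshold of 0.05. Standard errors are the absolute log2 fold change over the square root of F, and intervals use the fit's degrees of freedom. Alternatives used DESeq2 1.42.0, limma 3.58.1, other scalings and filters, FPKM with pseudocounts of 0.5 and 0.1, a replicate block and leaving out libraries. On simulated counts the fit recovered 40.4% of 1.5-fold changes and 83.7% of 2-fold changes, and called 0.0747% of unchanged genes.

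The members and lists were chosen with earlier results of these data known. Named genes were the members, Eaf2, up to 3 passing genes by smallest p and the most abundant gene without a call of each of the 7 pathway lists, and the 2 genes nearest in pattern to each passing member (predicted genes left out), Fas, the most abundant gene of each marker list, and Pax5; a further gene under the rule is not reported here. Over the marker lists for dendritic cells, NK cells, erythroid cells and platelets, and stroma and endothelium, 1 of 3, 0 of 2, 0 of 2 and 2 of 3 tested genes rose by edgeR; the dendritic cell call, Ccr9, was lost in 5 of 8 fits that left out 1 library (without Eaf2-/-Faslpr replicate 2, 3 or 4 or Faslpr replicate 1 or 2). At an unadjusted p under 0.05, edgeR gave no higher gene in the NK and erythroid lists, nor did DESeq2 or limma-voom at the adjusted threshold. Malt1, Lta, Tank, Cd2, Cd3e, Thy1, Cd3g, Cd5, Zap70, S100a8, S100a9, Ccr9, Xbp1, Psd, AC114539.1, Ly6g and Retnlg were named outside the rule. So were Nfkbie, Bcl3, Irf1, Ccr7, Cxcl10, 1700028N14Rik, Gm26879 and Mir3473c.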

Additional observations from a re-analysis of the deposited data

How the results depend on the processing

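The direction of Rel, Map3k14 and Nfkb2 held under all 17 other settings tried. Rel and Map3k14 passed in 17 of 17, Nfkb2 in 9 of 17: besides the libraries named above it missed the threshold without the low-count filter (adjusted p = 0.0526) and with both replicates numbered 4 left out (0.0762), a setting added after seeing the data because a set of deposited group means leaves them out. Between 2 and 3 members were called higher over all settings, and 0 lower. The 1493 genes called ranged from 990, without Faslpr replicate 2, to 1599 when 1 library was left out, and were 1955 by DESeq2, run over the whole table, and 1425 with the replicate block, 1284 of them shared. Of the 68 pathway genes tested at first, 24 were called higher, and between 15 and 22 when 1 library was left out. Counted over all 78 listed genes, the range in these fits was 16 to 23. Of the 24, between 15 and 20 were called again. Pathway genes called lower, 1 at first, were 3 by DESeq2 and with the replicate block, and between 1 and 3 when 1 library was left out; the cause was not tested. The block changed no member's call; the labels do not say that the numbers pair the samples, and deviations of same-numbered libraries from their group means correlated at 0.13, 0.17, 0.06 and −0.05, with 2 of 4 correlating best with their own number. The count over FPKM of Nfkb2, also added after seeing the data, passed with an FPKM minimum of 5 (adjusted p = 0.0460) and not of 1 (0.0648). With 4 libraries a group, members without a call may differ by amounts within their intervals.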
